A study of Mus musculus with 60 samples.

Results

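The muscle energy metabolism genes described here are 10 mouse genes by which muscle buffers, makes and imports its fuel: Ckm, Ckmt2, Mb, Pygm, Eno3, Pgam2, Slc2a4, Ampd1, Nmrk2 and Mss51. Members were found by gene symbol, either the one annotated to the array probe or the current one for its Entrez gene identifier. In all, 10 probes for 9 of the 10 genes were found among 21705 probes, 7 on array part I and 3 on array part II. Eno3 had 2 probes, named here by their sequence identifiers X70182 and NM_007933, and Ampd1 was not analysed here. After a filter that required at least 2 measured cultures in every line, 9 probes for 8 of these genes could be tested, out of 9719 probes for 8107 genes. The gene that failed the filter was Mb.

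Expression was compared between 5 mouse cell lines that the labels tie to oculopharyngeal muscular dystrophy (OPMD), a human muscle disease caused by an expanded alanine stretch in the nuclear poly(A)-binding protein PABPN1. D7E was transfected with mutant Pabpn1 and is labelled high, D7F was transfected with mutant Pabpn1 and is labelled low, WTA was transfected with wild-type Pabpn1 and is labelled high, WTD was transfected with wild-type Pabpn1 and is labelled low, and IM2 is the untransfected line. Each line was grown as 3 cultures, and every culture's RNA was set against a common IM2 reference on 4 two-colour arrays, with both dye orientations on each of 2 array parts (60 arrays in all). The labels name neither the mutation, the tissue of origin, the promoter of the transgenes nor the state of the cultures. Each combination of genotype and level is 1 line, so a line's own history and its transgene cannot be told apart, and nothing in the labels shows that the cultures were grown independently. Values are log2 ratios of a culture over the IM2 reference, each the mean of both dye orientations. The deposited log ratios state no base and base 10 was assumed, so the log2 sizes and folds given here depend on that reading, and the signs and calls do not. Ratios carry no absolute level, so they cannot show how strongly a line expresses a gene.

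Muscle cells hold a reserve of phosphocreatine, from which creatine kinases regenerate ATP at the myofibrils and at the mitochondria. When that reserve runs down, glycogen is broken down by a muscle-specific phosphorylase, glucose enters through a transporter that insulin and contraction bring to the cell surface, and both feed glycolysis, several steps of which use isoforms found mainly in muscle. These isoforms replace their widely expressed counterparts as myoblasts fuse and mature, under the control of MyoD-family and MEF2 transcription factors.

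Promoter sequence was available for 8 of the 10 genes, in 10 entries, and not for Slc2a4 or Ampd1. Of the genes printed, Pgam2 and Pygm passed the test against IM2 below, Ckm passed in no comparison, and Nmrk2 and Mss51 stood apart from the rest. In all, 5 entries are printed. Each runs from 250 bases before to 50 bases after an annotated transcription start, 5′ to 3′ on the gene's strand (RefSeq, build GRCm38.p6). Capitals mark the E-box CAGCTG, a sequence that MyoD-family factors bind, and the MEF2 motif. Both motifs read the same on either strand, and the matches do not overlap.
Ckm, chr7:19410844-19411143, plus strand: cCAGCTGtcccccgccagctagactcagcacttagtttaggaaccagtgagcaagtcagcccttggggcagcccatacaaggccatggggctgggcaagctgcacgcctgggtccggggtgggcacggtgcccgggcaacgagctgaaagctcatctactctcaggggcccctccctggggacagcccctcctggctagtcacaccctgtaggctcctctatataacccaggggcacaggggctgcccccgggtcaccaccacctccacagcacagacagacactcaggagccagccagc
Pgam2, chr11:5803747-5804046, minus strand: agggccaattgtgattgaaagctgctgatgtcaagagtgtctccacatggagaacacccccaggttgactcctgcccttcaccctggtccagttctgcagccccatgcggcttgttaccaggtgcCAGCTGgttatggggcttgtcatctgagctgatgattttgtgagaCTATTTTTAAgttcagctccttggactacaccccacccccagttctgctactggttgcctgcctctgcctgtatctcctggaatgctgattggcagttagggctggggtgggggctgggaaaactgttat
Pygm, chr19:6384158-6384457, plus strand: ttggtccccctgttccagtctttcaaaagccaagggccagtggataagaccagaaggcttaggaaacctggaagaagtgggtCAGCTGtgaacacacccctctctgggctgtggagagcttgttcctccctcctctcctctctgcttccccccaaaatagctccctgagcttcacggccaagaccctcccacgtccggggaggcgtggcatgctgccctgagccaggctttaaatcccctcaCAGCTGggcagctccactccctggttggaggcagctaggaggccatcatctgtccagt
Nmrk2, chr10:81201988-81202287, minus strand: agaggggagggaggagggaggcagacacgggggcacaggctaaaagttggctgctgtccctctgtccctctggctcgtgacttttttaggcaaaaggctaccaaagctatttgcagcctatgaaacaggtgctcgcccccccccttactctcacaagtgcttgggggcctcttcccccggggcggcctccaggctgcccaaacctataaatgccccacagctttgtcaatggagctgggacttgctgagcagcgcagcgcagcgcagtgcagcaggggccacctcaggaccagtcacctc
Mss51, chr14:20496852-20497151, minus strand: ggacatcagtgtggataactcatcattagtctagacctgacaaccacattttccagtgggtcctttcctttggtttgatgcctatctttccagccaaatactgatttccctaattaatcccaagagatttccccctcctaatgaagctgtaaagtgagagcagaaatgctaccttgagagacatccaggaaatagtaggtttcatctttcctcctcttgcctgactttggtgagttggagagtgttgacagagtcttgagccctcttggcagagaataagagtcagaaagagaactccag
CAGCTG lay at position -249 from the start in the Ckm promoter, at -125 in Pgam2, and at -168 and -8 in Pygm, and it was also found in the entries of Eno3, Ckmt2 and Mb. In all, 6 of the 8 genes held it, in 7 of the 10 entries, and the overlapping Mb entries held the same site. Of 32851 mouse promoter entries of the same length, 16.3% held it. The MEF2 motif was found in 1 entry, at -80 in Pgam2, against 3.19% of all promoters. Neither was found in the windows of Nmrk2 and Mss51. A match is a description of letters and was not tested for binding.

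The label check used Pabpn1 itself, on part I. Its mean log2 ratio was 1.61 ± 0.14 in D7E, 0.92 ± 0.11 in D7F, 2.19 ± 0.29 in WTA, 1.43 ± 0.07 in WTD and -0.18 ± 0.06 in IM2 (SD, n = 3 each). The transfected lines were all higher than IM2, and within each genotype the line labelled high exceeded the line labelled low. The cultures of D7E, labelled high, and of WTD, labelled low, overlapped. Arrays differed in quality: on part I between 82.4% and 99.9% of rows were filled, on part II between 46.0% and 99.4%, and 14 of 60 arrays, 6 of them from IM2, had many values missing or at the limits of the deposited scale (-2 and 2), which were treated as not measured. IM2 arrays hold no marker of their direction, so every fit was repeated with their sign turned. The 2 dye orientations of a culture differed by a median of 0.12 for Ckm, 0.10 for Pgam2, 0.17 for Pygm, 0.21 for Slc2a4, 0.20 for Eno3 X70182, 0.31 for Eno3 NM_007933, 0.15 for Nmrk2, 0.27 for Ckmt2 and 0.50 for Mss51, against 0.29 over all tested probes of part I and 0.33 of part II. The widest single gap among the tested members was 1.46, for Eno3 X70182 in IM2 culture 3 (-0.92 on Cy5 and -2.38 on Cy3).

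Set against IM2, the transfected lines as a group had higher ratios for the glucose transporter Slc2a4, the glycolytic enzyme Pgam2 and the glycogen phosphorylase Pygm. These were 3 of the 9 member probes, all higher, against 15.2% of all tested probes called in either direction (limma, Benjamini-Hochberg adjusted p under 0.05). The median difference of the 9 probes was 0.50, beside 0.03 over all tested probes, and 7 of 9 differences were positive. All 12 transfected cultures lay above all 3 IM2 cultures for Slc2a4 and for Pgam2. The counts were 11 of 12 for Pygm, 10 for Ckm, 10 and 9 for the NM_007933 and X70182 probes of Eno3, 5 for Mss51, 2 for Ckmt2 and 1 for Nmrk2. All comparisons with IM2 share its 3 cultures. Without the 14 arrays of lower quality the 3 differences had the same sign (0.57 for Slc2a4, 0.55 for Pgam2 and 0.32 for Pygm) and 0 of 10 testable member probes passed, when 145 of 16845 probes passed in all.

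**Figure D1:**
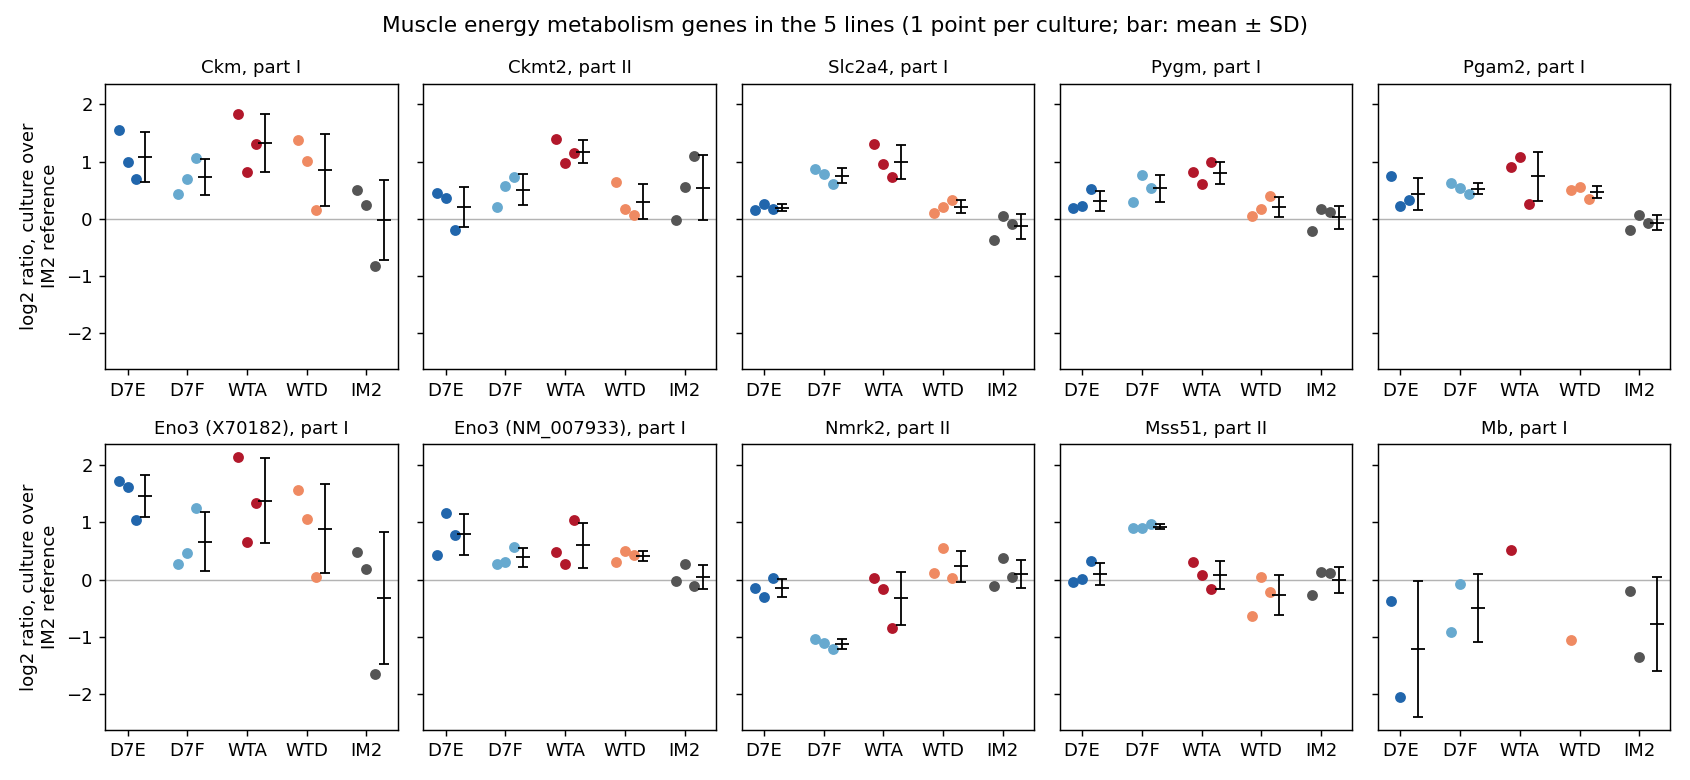
Log2 ratio of culture over IM2 reference for each member probe (y axis) in the 5 lines (x axis), with 1 point per culture in which both dye orientations were measured and a bar for the mean ± SD. All transfected cultures lie above IM2 for Slc2a4 and Pgam2, D7F alone stands high for Mss51 and low for Nmrk2, and Mb was measured in 8 of 15 cultures.

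Slc2a4 encodes GLUT4, the insulin-regulated glucose transporter of muscle and fat. Its log2 ratios were 0.15, 0.26 and 0.17 in the 3 D7E cultures, 0.87, 0.78 and 0.61 in D7F, 1.31, 0.95 and 0.72 in WTA, 0.10, 0.21 and 0.33 in WTD, and -0.36, 0.05 and -0.08 in IM2. The lines fell into 3 levels. WTA and D7F were high and overlapped each other, WTD and D7E were intermediate and overlapped each other, and IM2 was lowest, with no overlap between these levels. The mean of the transfected lines exceeded IM2 by 0.67 (SE 0.12, a 1.59-fold difference, limma adjusted p = 0.00411). By line, WTA exceeded IM2 by 1.13 (SE 0.15, adjusted p = 0.00101) and D7F by 0.89 (SE 0.15, adjusted p = 0.00674). WTD and D7E did not pass the test, with differences from IM2 of 0.35 (adjusted p = 0.207) and 0.33 (adjusted p = 0.206).

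The lines labelled high and low differed in Slc2a4 in opposite directions in the 2 genotypes. Slc2a4 was 0.80 lower in D7E than in WTA (SE 0.15, limma adjusted p = 0.0328). It averaged 0.75 ± 0.13 in D7F and 0.21 ± 0.11 in WTD (SD, n = 3 each), a difference of 0.54 that did not pass the test (adjusted p = 0.248). Between the wild-type lines it was 0.78 higher in WTA than in WTD (adjusted p = 0.0233), and between the mutant lines it was 0.56 lower in D7E than in D7F (unadjusted p = 0.0035, adjusted p = 0.245). The genotype by level term, which subtracts the WTA and D7F average from that of WTD and D7E, was -0.67 (SE 0.11, adjusted p = 0.0081). Its 6 WTD and D7E cultures were all below its 6 WTA and D7F cultures, and 2.37% of all tested probes passed this test. The term held with each culture left out in turn (largest adjusted p = 0.0258), and did not pass on Cy5 arrays only (adjusted p = 0.156) or once the 14 arrays of lower quality were dropped (-0.70, adjusted p = 0.0605). The differences of D7E from WTA and of WTA from WTD each passed in 11 of the 15 fits that left out a culture, and not without WTA culture 1 (adjusted p = 0.0753 and 0.0793) or without any 1 culture of D7E in the first and of WTD in the second. Over all 28 other settings each passed in 15.

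Pygm encodes the muscle glycogen phosphorylase, which releases glucose 1-phosphate from glycogen. Its log2 ratios were 0.19, 0.22 and 0.52 in D7E, 0.29, 0.77 and 0.53 in D7F, 0.82, 0.60 and 0.99 in WTA, 0.05, 0.17 and 0.40 in WTD, and -0.21, 0.17 and 0.12 in IM2. WTA was the highest line, followed by D7F, D7E, WTD and IM2, and each line overlapped its neighbour in this order. Transfected lines exceeded IM2 by 0.44 on average (SE 0.13, limma adjusted p = 0.0428) and WTA exceeded IM2 by 0.78 (SE 0.17, 1.72-fold, adjusted p = 0.0113). The first of these passed in 11 of 27 other settings, with an adjusted p of 0.19 without IM2 culture 1, and the second in 24 of 28. The difference between D7F and IM2 was 0.51 (unadjusted p = 0.0102, adjusted p = 0.112). The genotype by level term of Pygm had the same sign as that of Slc2a4, at -0.41 (SE 0.12), and did not pass the test (adjusted p = 0.0917). Over the 15 cultures Pygm and Slc2a4 correlated with r = 0.82 (Spearman 0.86), and with r = 0.79 without WTA cultures 1 and 2, the pair farthest from the Slc2a4 median. All 15 values come from arrays of the same part and the same reference.

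Pgam2 encodes the muscle phosphoglycerate mutase, which moves the phosphate of 3-phosphoglycerate in the lower part of glycolysis. Its log2 ratios were 0.75, 0.23 and 0.32 in D7E, 0.63, 0.53 and 0.43 in D7F, 0.90, 1.07 and 0.26 in WTA, 0.50, 0.56 and 0.35 in WTD, and -0.20, 0.06 and -0.07 in IM2. The 4 transfected lines overlapped each other and none overlapped IM2. Their mean exceeded IM2 by 0.61 (SE 0.16, 1.53-fold, limma adjusted p = 0.021). WTA exceeded IM2 by 0.81 (SE 0.20, adjusted p = 0.0201). WTD, D7E and D7F exceeded IM2 by 0.54, 0.50 and 0.60 with adjusted p of 0.121, 0.125 and 0.112. The difference of the means did not pass without IM2 culture 1 or IM2 culture 3 (adjusted p = 0.0858 and 0.0557), the difference of WTA from IM2 did not pass without WTA culture 1 or IM2 culture 1, and the first did not pass with turned IM2 arrays (0.48, adjusted p = 0.0521).

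Ckm, the cytosolic creatine kinase of muscle, and the X70182 probe of Eno3, the muscle enolase, had the widest spread within lines among the 9 tested probes. Ckm had log2 ratios of 1.55, 0.99 and 0.69 in D7E, 0.43, 0.70 and 1.07 in D7F, 1.83, 0.82 and 1.31 in WTA, 1.39, 1.00 and 0.16 in WTD, and 0.51, 0.23 and -0.82 in IM2. Every transfected culture was above 0, and 10 of 12 were above the highest IM2 culture. The mean of the transfected lines exceeded IM2 by 1.02 (SE 0.32, 2.03-fold), which just missed the threshold (unadjusted p = 0.00776, limma adjusted p = 0.0505). WTA exceeded IM2 by 1.35 (SE 0.41, adjusted p = 0.0514) and D7E by 1.10 (adjusted p = 0.102). The pooled SD within a line was 0.54 for Ckm, against 0.18 for Slc2a4 and 0.20 for Pygm. The transfected mean of Ckm passed in 5 of the 15 fits that left out a culture (WTA 2, WTD 3, D7E 3, IM2 1 or IM2 2), and its adjusted p lay between 0.032 and 0.223. Without IM2 culture 3, the lowest culture, the differences of Ckm were 0.62 for the transfected mean (adjusted p = 0.223) and 0.71 for D7E.

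Eno3 catalyses the step of glycolysis that makes phosphoenolpyruvate, and its probes gave different sizes. The X70182 probe had log2 ratios of 1.73, 1.62 and 1.04 in D7E, 0.28, 0.46 and 1.25 in D7F, 2.14, 0.66 and 1.34 in WTA, 1.56, 1.06 and 0.04 in WTD, and 0.49, 0.18 and -1.65 in IM2. The NM_007933 probe had 0.42, 1.16 and 0.78 in D7E, 0.27, 0.31 and 0.57 in D7F, 0.48, 0.28 and 1.04 in WTA, 0.31, 0.50 and 0.42 in WTD, and -0.02, 0.28 and -0.12 in IM2. Both probes were above 0 in all 12 transfected cultures. The transfected mean exceeded IM2 by 1.43 (SE 0.45, limma adjusted p = 0.051) on X70182 and by 0.50 (SE 0.17, adjusted p = 0.0662) on NM_007933. The difference between D7E and IM2 passed on NM_007933, at 0.74 (SE 0.21, 1.67-fold, adjusted p = 0.0423), but in 10 of 28 other settings, among them 6 of the 15 fits that left out a culture (largest adjusted p = 0.143, without D7E culture 2). On X70182 it was 1.79 (SE 0.57, adjusted p = 0.0613). Without IM2 culture 3, the lowest culture, the X70182 differences were 0.76 for the transfected mean (adjusted p = 0.235) and 1.13 for D7E. With turned IM2 arrays, that of the transfected mean was 0.77.

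The 15 culture values of X70182 followed those of Ckm with r = 0.97 (Spearman 0.95), and with r = 0.93 without WTA culture 1 and IM2 culture 3. Of the 2872 probes of part I measured in all 15 cultures, none of another gene came closer to Eno3 X70182 than Ckm, and the reverse also held. The 2 Eno3 probes followed each other less closely (r = 0.63). High and low values of the first pair cut across the lines: WTD culture 3 was low on both and WTD culture 1 high on both. The next closest genes were Atp6v1d (r = 0.95 with Eno3 X70182) and Ccnh (r = 0.93 with Ckm).

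**Figure D2:**
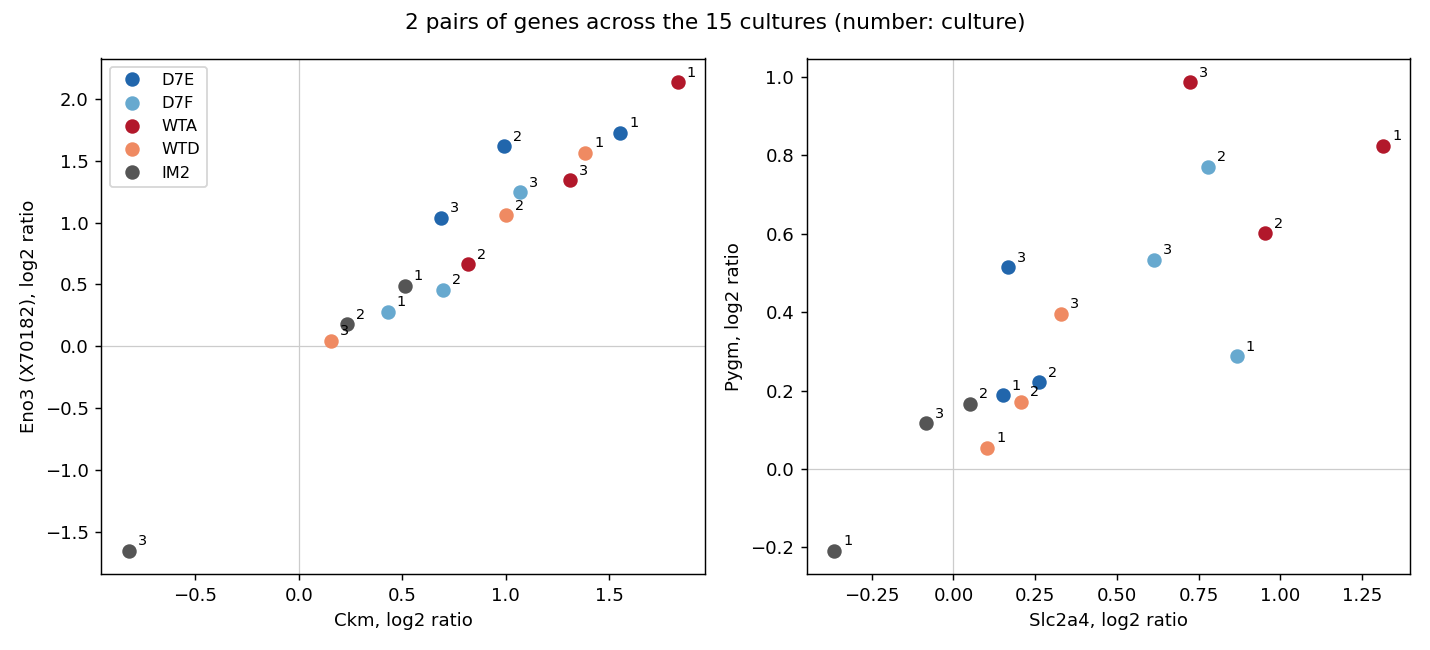
Log2 ratios of 2 pairs of genes in the 15 cultures, coloured by line and numbered by culture: Eno3 (X70182) against Ckm on the left and Pygm against Slc2a4 on the right. In the left plot the cultures of 1 line spread along the diagonal, while in the right plot WTA and D7F lie at higher Slc2a4 than the other lines.

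Ckmt2, the mitochondrial creatine kinase of striated muscle, did not separate the transfected lines from IM2. Its log2 ratios on part II were 0.45, 0.36 and -0.20 in D7E, 0.21, 0.58 and 0.73 in D7F, 1.39, 0.98 and 1.15 in WTA, 0.64, 0.18 and 0.07 in WTD, and -0.02, 0.55 and 1.10 in IM2. WTA was the highest line, and its cultures lay above all cultures of the other transfected lines but not above IM2 culture 3. Ckmt2 averaged 0.20 ± 0.36 in D7E and 1.17 ± 0.20 in WTA (SD, n = 3 each), a difference of -0.97 (unadjusted p = 0.00336, limma adjusted p = 0.0855). WTA exceeded IM2 by 0.63 (SE 0.27, adjusted p = 0.158) and WTD by 0.87 (SE 0.27, adjusted p = 0.136). With turned IM2 arrays, the difference of WTA from IM2 was 1.72 and passed (adjusted p = 0.00148). It also passed without IM2 culture 3 (adjusted p = 0.0444), and was 0.34 without IM2 culture 1 (adjusted p = 0.437).

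Mb, the oxygen-binding myoglobin, had no testable pattern. Of its 30 array values, 3 were empty and 5 lay at a limit of the deposited scale, and both dye orientations were measured in 8 of 15 cultures. The log2 ratios were -0.37 and -2.05 in D7E cultures 1 and 3, -0.92 and -0.08 in D7F cultures 1 and 3, 0.52 in WTA culture 2, -1.05 in WTD culture 3, and -0.19 and -1.36 in IM2 cultures 2 and 3. Both IM2 values lay within the range of the transfected ones, and the largest gap between the dyes of 1 culture was 5.46.

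Nmrk2 and Mss51 each had 1 transfected line, D7F, apart from all other lines, unlike the other tested members. Both lie with Ckmt2 on part II, whose RNA is labelled polyA, while the other tested members lie on part I, labelled total RNA. A difference between these genes and the part I members cannot be told apart from a difference between the parts. Nmrk2 encodes the muscle-enriched nicotinamide riboside kinase, which makes a precursor of NAD. Its log2 ratios were -0.15, -0.31 and 0.02 in D7E, -1.05, -1.12 and -1.21 in D7F, 0.03, -0.17 and -0.85 in WTA, 0.12, 0.54 and 0.03 in WTD, and -0.11, 0.37 and 0.04 in IM2. All 3 D7F cultures lay below the other 12. Nmrk2 was 1.22 lower in D7F than in IM2 on the log2 scale (difference -1.22, SE 0.22, 2.34-fold, limma adjusted p = 0.00621), where 4.5% of all tested probes were called. It was 2.56-fold lower in D7F than in WTD (difference -1.36, SE 0.22, adjusted p = 0.0134), where 0.453% of all tested probes were called. The comparison with IM2 passed in 26 of 28 other settings and the comparison with WTD in 18 of 28. The second did not pass without WTD culture 1 or 2 or D7F culture 2 or 3 (largest adjusted p = 0.0778). Neither comparison passed without the 14 arrays of lower quality. Those include 4 IM2 arrays of part II, with at least 1 from each IM2 culture.

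Mss51 encodes a protein of skeletal muscle mitochondria whose loss in mouse raises muscle oxidative metabolism. Its log2 ratios were -0.04, 0.01 and 0.32 in D7E, 0.90, 0.90 and 0.97 in D7F, 0.31, 0.09 and -0.17 in WTA, -0.64, 0.05 and -0.23 in WTD, and -0.28, 0.13 and 0.12 in IM2. All 3 D7F cultures lay above the other 12. Mss51 was 0.93 higher in D7F than in IM2 (SE 0.19, 1.91-fold, limma adjusted p = 0.0146) and 1.19 higher in D7F than in WTD (SE 0.19, 2.29-fold, adjusted p = 0.0134). The Cy3 array of a culture gave a higher ratio than its Cy5 array in 13 of 15 cultures, and the sign was the same in both orientations in 6 of 15. In D7F both orientations were positive, between 0.57 and 1.05 on Cy5 and between 0.90 and 1.23 on Cy3. With only Cy3 arrays or only Cy5 arrays the difference of D7F from IM2 did not pass (adjusted p = 0.139 and 0.0703), and neither did it without IM2 culture 1 (adjusted p = 0.0565). The difference from WTD did not pass without WTD culture 1 or 3 or D7F culture 2 or 3 (largest adjusted p = 0.0745). Without the 14 arrays of lower quality, neither difference of Mss51 passed.

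Both genes also passed the genotype by level test, with opposite signs. Nmrk2 averaged 0.04 over WTD and D7E and -0.73 over WTA and D7F (difference 0.77, SE 0.16, limma adjusted p = 0.0222). Mss51 averaged -0.09 over WTD and D7E and 0.50 over WTA and D7F (difference -0.59, SE 0.14, adjusted p = 0.0436). The term of Nmrk2 did not pass without WTD culture 2, D7E culture 3 or D7F culture 2 (largest adjusted p = 0.0545), and that of Mss51 did not pass in 9 of the 15 fits that left out a culture (largest adjusted p = 0.0925). D7F was the line that stood apart in both, whereas for Slc2a4 WTA and D7F were both high. Slc2a4, Nmrk2 and Mss51 made 3 of 9 probes called in this test, beside 2.37% of all tested probes. Between the mutant lines, D7E minus D7F was 0.98 for Nmrk2 (adjusted p = 0.117) and -0.82 for Mss51 (adjusted p = 0.134). The direction of the part II ratios, on which both genes and Ckmt2 lie, has no Pabpn1 probe to check it.

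**Figure D3:**
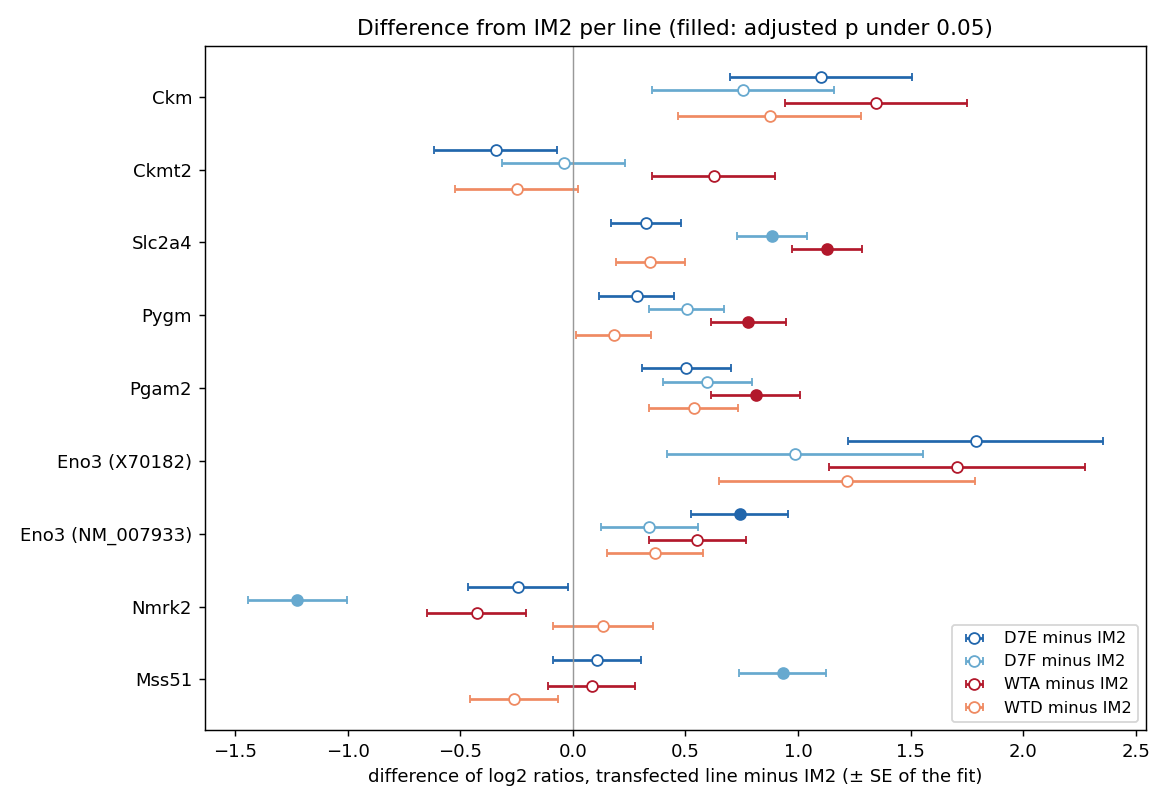
Difference of log2 ratios between each transfected line and IM2 (x axis, with the SE of the limma fit) for the 9 tested probes (y axis), with filled points where the adjusted p was under 0.05. Filled points are Slc2a4 in WTA and D7F, Pygm and Pgam2 in WTA, Eno3 (NM_007933) in D7E, and Nmrk2 and Mss51 in D7F.

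By comparison, the counts of members called were as follows. WTA against IM2 called 3 of 9 probes, all higher, beside 11.5% of all tested probes. D7F against IM2 called 3 of 9, with 2 higher and 1 lower, beside 4.5%. D7E against IM2 called 1 of 9 beside 12.3%, a share of members near the background. WTD against IM2 called 0 of 9 beside 7.03%, with 2 at an unadjusted p under 0.05 (limma). D7E against WTA called 1 of 9 (Slc2a4, lower) beside 1.64%, and D7F against WTD called 2 of 9 beside 0.453%. WTA against WTD called 1 of 9 (Slc2a4, higher) beside 1.77%. Mutant against wild-type called 0 of 9 beside 0.195%, with 2 at an unadjusted p under 0.05. These were Mss51, higher by 0.61 in mutant lines (adjusted p = 0.142), and Nmrk2, with a difference of -0.59 (adjusted p = 0.263). High against low called 0 of 9 beside 0.381%, with 0 at an unadjusted p under 0.05, and D7E against D7F called 0 of 9 beside 0.226%, with 3 at an unadjusted p under 0.05.

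Of the non-muscle isoforms and paralogs of the members, 8 of 14 genes were tested against IM2, with a median difference of -0.01 in the transfected mean. Of these, 0 were higher and 3 lower, beside 15.2% of all tested probes called. Eno1, another enolase on this list, was not among the genes tested. Eno2, the neuronal enolase, was 2.98-fold lower (difference -1.58, SE 0.15, limma adjusted p = 9e-05). Pgam1, the widely expressed phosphoglycerate mutase, was 2.41-fold lower (difference -1.27, SE 0.13, adjusted p = 0.00011), and Cygb, a globin of fibroblast-like cells, was 1.41-fold lower (adjusted p = 0.0312). Eno2 averaged -1.80 ± 0.32 in D7E, -1.18 ± 0.13 in D7F, -1.45 ± 0.33 in WTA, -1.54 ± 0.09 in WTD and 0.08 ± 0.24 in IM2 (SD, n = 3 each). Pgam1 averaged -1.39 ± 0.18 in D7E, -1.04 ± 0.10 in D7F, -0.98 ± 0.36 in WTA, -1.63 ± 0.04 in WTD and 0.01 ± 0.12 in IM2 (SD, n = 3 each). All 12 transfected cultures lay below all 3 IM2 cultures for Pgam1 and above them for Pgam2. The brain creatine kinase Ckb (-0.21, adjusted p = 0.224), the mitochondrial Ckmt1 (0.40, adjusted p = 0.108) and the widely expressed glucose transporter Slc2a1 (0.79, adjusted p = 0.141) did not pass the test, and Slc2a1 was at -0.25 with turned IM2 arrays.

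**Figure D4:**
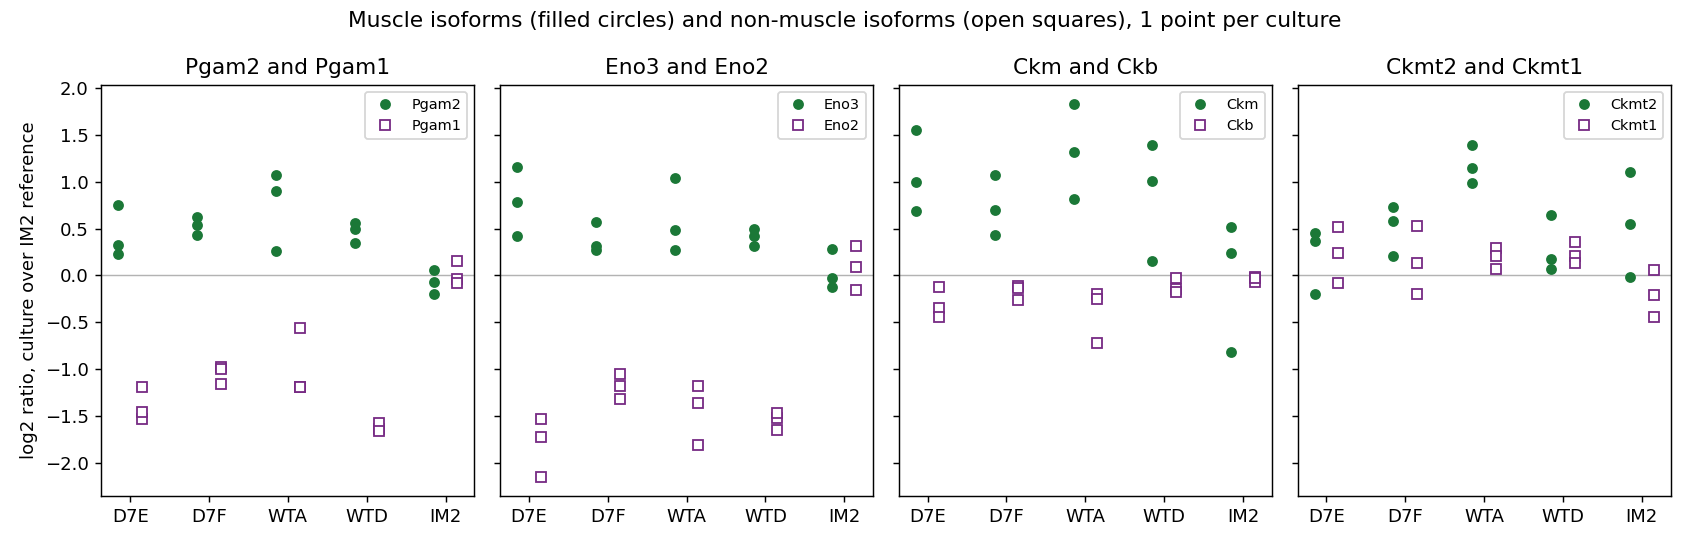
Log2 ratio of culture over IM2 reference (y axis) for 4 muscle isoforms (filled circles) and their counterparts outside mature muscle (open squares) in the 5 lines (x axis), 1 point per culture; for Eno3 the NM_007933 probe is shown. Pgam1 and Eno2 lie below 0 in every transfected culture, while Pgam2 and Eno3 lie above 0, and Ckb and Ckmt1 stay closer to 0.

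Among other genes of glycolysis and glucose uptake, 19 of 25 were tested against IM2. In the transfected mean 2 were higher and 3 lower, beside 15.2% of all tested probes called. Ldhb, a subunit of lactate dehydrogenase, was higher by 0.82 (SE 0.17, limma adjusted p = 0.00949), and Hk1, a hexokinase, by 0.46 (SE 0.10, adjusted p = 0.0119) on 1 of its 2 probes. Ldhb averaged 0.14 ± 0.19 in D7E, 0.38 ± 0.11 in D7F, 0.84 ± 0.48 in WTA, 1.13 ± 0.33 in WTD and -0.20 ± 0.10 in IM2 (SD, n = 3 each). Line by line, Ldhb passed against IM2 in WTA and WTD but not in D7E or D7F. Its transfected mean did not pass with turned IM2 arrays. Pgam1, the liver-type phosphofructokinase Pfkl (-0.98, SE 0.11, adjusted p = 0.0002) and the lactate transporter Slc16a1 (-0.54, adjusted p = 0.0487) were lower. The call of Slc16a1 passed in 9 of 27 other settings, among them 4 of the 15 fits that left out a culture (largest adjusted p in these 0.2). The median of the list was -0.09. Pfkl averaged -1.34 ± 0.10 in D7E, -0.53 ± 0.14 in D7F, -0.44 ± 0.28 in WTA, -1.48 ± 0.05 in WTD and 0.04 ± 0.12 in IM2 (SD, n = 3 each). Its lines grouped as those of Slc2a4 did, with a genotype by level term of -0.93 (SE 0.10, adjusted p = 0.00045), but WTD and D7E were here the farthest from IM2.

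Among the genes of glycogen metabolism, 9 of 17 were tested, with a list median of -0.18. In the transfected mean 0 were higher and 2 lower, beside 15.2% of all tested probes called. This count was 0 without IM2 culture 1, and 1 without IM2 culture 3, D7E culture 3, any 1 culture of WTD, or culture 1 or 2 of WTA or D7F. The phosphoglucomutase Pgm1 was lower by its fit (-0.51, limma adjusted p = 0.0455), which passed in 7 of 27 other settings, and Stbd1, a glycogen-binding protein, had a difference of -0.76 (adjusted p = 0.0361). Pgm1 averaged -0.68 ± 0.21 in D7E, 0.02 ± 0.28 in D7F, 0.23 ± 0.39 in WTA, -0.97 ± 0.13 in WTD and 0.16 ± 0.08 in IM2 (SD, n = 3 each). WTD and D7E lay below the other 3 lines with no overlap, and the genotype by level term was -0.95 (SE 0.14, adjusted p = 0.00324). Of the phosphagen and adenine nucleotide genes, 7 of 12 were tested and 1 passed, a share near the 15.2% of all tested probes: Adsl, an enzyme of purine synthesis, was higher by 0.45 (SE 0.10, adjusted p = 0.0117). The count was 2 without WTA culture 3 and 0 without IM2 culture 3. The median of that list was 0.18.

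Of the genes of muscle mitochondria and fatty acid use, 18 of 27 were tested against IM2, and 2 were higher and 0 lower in the transfected mean, a share below the 15.2% of all tested probes, with a median of 0.17. Without IM2 culture 2, 4 passed. Cd36, which takes up fatty acids, was higher by 0.95 (SE 0.11, 1.94-fold, limma adjusted p = 0.00027), and the muscle fatty acid carrier Fabp3 by 0.76. Cd36 averaged 1.11 ± 0.15 in D7E, 0.80 ± 0.20 in D7F, 1.29 ± 0.25 in WTA, 0.60 ± 0.08 in WTD and -0.01 ± 0.05 in IM2 (SD, n = 3 each). Fabp3 averaged 0.31 ± 0.12 in D7E, 0.68 ± 0.07 in D7F, 1.36 ± 0.29 in WTA, 0.69 ± 0.03 in WTD and -0.0012 ± 0.22 in IM2 (SD, n = 3 each), and its genotype by level term was -0.52 (adjusted p = 0.0311), which passed in 13 of 28 other settings, where it lay between -0.59 and -0.27. Cox8b, a cytochrome c oxidase subunit of heart and muscle, was the 1 gene of these metabolic lists called between mutant and wild-type lines, with a difference of -0.81 (SE 0.14, adjusted p = 0.0376), which passed in 11 of 28 other settings. The neural marker Snap25, a synaptic membrane fusion protein, was also called there (-0.79, SE 0.13, adjusted p = 0.0376, and in 11 of 28 other settings). Snap25 averaged -0.39 ± 0.25 in D7E, -0.48 ± 0.20 in D7F, 0.19 ± 0.31 in WTA, 0.53 ± 0.14 in WTD and -0.10 ± 0.21 in IM2 (SD, n = 3 each). Cox8b was close to it in every line, at -0.44 ± 0.27 in D7E, -0.52 ± 0.19 in D7F, 0.14 ± 0.33 in WTA, 0.52 ± 0.11 in WTD and -0.09 ± 0.23 in IM2 (SD, n = 3 each). Whether Cox8b and Snap25 carry separate signals was not tested.

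Markers of skeletal muscle and of other cells moved with the transfected lines as well. Of 17 tested skeletal muscle markers, 7 were higher and 0 lower in the transfected mean than in IM2, with a median difference of 0.40. Over all tested probes 15.2% were called in this comparison, the share to set beside this and the other marker counts. The 7 were Chrna1, Mef2c, Myf6, Mymk, Myod1, Tnni2 and Tnnt3. Without IM2 culture 1, 2 of these markers passed, and without the 14 arrays of lower quality 0. Averaged over the 16 markers measured in every culture, the log2 ratio was 0.30 ± 0.02 in D7E, 0.29 ± 0.04 in D7F, 0.32 ± 0.09 in WTA, 0.31 ± 0.05 in WTD and -0.08 ± 0.18 in IM2 (SD, n = 3 each). The 4 line means of this average lay between 0.29 and 0.32, and an average can hide differences between single markers. For Myf6, 1 of these markers, the transfected line means lay between 0.15 in WTD and 0.99 in WTA. For Myod1 they lay between 0.24 in D7F and 0.33 in WTA. Of 5 tested fibroblast markers, 4 were lower (Col1a1, Col1a2, Col3a1 and Fbln2, median difference -1.12). The average of 5 fibroblast probes lay between -1.25 and -0.60 in the transfected cultures and between 0.04 and 0.18 in IM2. Of 4 tested proliferation markers, 3 were lower (Cdk1, Mcm5 and Rrm2), and 1 passed without D7E culture 1 or IM2 culture 1. Of 3 heart markers 1 was higher (Tnni3), and of 4 smooth muscle, 2 adipocyte and 1 neural marker 0 passed (limma), with 2, 0 and 0 of them at an unadjusted p under 0.05. A change in the make-up of the cultures and a change of RNA per cell cannot be told apart, and the part of these markers in the members' differences was not tested.

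For each member, the genes with the most similar pattern over the 15 cultures were read off as a description. Slc2a4 was closest to Fdft1, an enzyme of sterol synthesis (r = 0.92), and to Myf6, a myogenic transcription factor (r = 0.92), out of 2872 probes of part I. Myf6 averaged 0.21 ± 0.24 in D7E, 0.76 ± 0.10 in D7F, 0.99 ± 0.03 in WTA, 0.15 ± 0.05 in WTD and -0.02 ± 0.13 in IM2 (SD, n = 3 each), and its genotype by level term was -0.69 (SE 0.09, limma adjusted p = 0.00147). Pgam2 was closest to Jpt1 (r = 0.95) and to Tcap, the titin cap protein of the sarcomere (r = 0.94). Pygm was closest to the mitochondrial prohibitin Phb (r = 0.93) and to Tmod1, which caps actin filaments (r = 0.93). Eno3 NM_007933 was closest to Fxr1 (r = 0.95) and to the ATP synthase subunit Atp5b (r = 0.93). On part II, out of 2157 probes, Nmrk2 was closest to Zc2hc1a (r = 0.90) and Ociad2 (r = 0.86), Mss51 to Cacng6 (r = 0.80) and Pisd-ps3 (r = 0.80), and Ckmt2 to Sgcb, a sarcoglycan (r = 0.81), and Mcur1 (r = 0.78). Nmrk2 and Mss51 were opposed over the 15 cultures with r = -0.66 (Spearman -0.39), and with r = -0.37 without D7F cultures 2 and 3. All these values share the reference and the arrays of 1 part.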

How the data were processed

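The deposited values of each array part are log ratios, and neither their base nor the scanning, background correction and normalisation are given in the sources used here. The authors' deposited values stop at -2 and 2 and were taken as log10, since that limit is then a ratio of 100. They were multiplied by 3.3219 to give log2 ratios, so every log2 size rests on this reading of the deposited scale. Values at the limits were treated as not measured. All signs were kept as deposited and read as culture relative to reference, since Pabpn1 was positive in the transfected lines on part I. Part II has no such check. Part I RNA is labelled total and part II RNA polyA. Dyes follow the channel sources where the titles contradict them (part I, WTA culture 3). For 1 part I array of D7F culture 1 the description says high, and the title was used.

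Probes were named through Entrez identifiers (mouse gene table, GRCm38.p6), rows with identical values were collapsed and human control probes were left out. A culture was the mean of both dye orientations, and probes with at least 2 such cultures in every line were tested. The parts were fitted separately in limma 3.58.1 under R 4.3.3 (lmFit and eBayes, all 15 cultures in 1 model), and p-values were adjusted over both parts together by the Benjamini-Hochberg method (threshold 0.05). Of 12 comparisons, WTA against WTD and D7E against D7F were added after the data were seen. The fit was tested on simulated data. All members are named with their levels in every line, and a difference is printed where its unadjusted p was under 0.05 or where the comparison is discussed beside one. Of the gene lists, members past the threshold are named, at most 4 per list and direction, and for each member the 2 most correlated genes of its part. The members and lists were chosen with earlier results of these data known. No spot intensities were used, and the number of arrays limits the precision.

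The culture numbers gave no clear pairing of the cultures: of 30 same-numbered pairs of deviations from the line means, r lay between -0.24 and 0.47 and was over 0.1 in 8. In 7 of 15 cultures the best correlation was with the same number. The check cannot settle whether the cultures were paired, and the main fit used no block. Alternatives were the handling of limit values, the sign of the IM2 arrays, centring and scaling, either dye alone, array quality, the culture filter, the culture number as a block, robust eBayes, the compared lines alone and each culture left out.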

Additional observations from a re-analysis of the deposited data

Results flagged for a closer look

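In 3 member genes the effect of the labelled level differed between the mutant and the wild-type lines by a test of that difference (limma, genotype by level, the WTD and D7E average less that of WTA and D7F). For Slc2a4 it was -0.67 (adjusted p = 0.0081): the line labelled high was lower than the line labelled low in the mutant pair and higher in the wild-type pair. For Mss51 it was -0.59 (adjusted p = 0.0436) and for Nmrk2 0.77 (adjusted p = 0.0222). In both, D7F stood apart from the other lines. The 3 genes made 3 of 9 member probes called in this test, beside 2.37% of all tested probes. Each genotype and level is 1 line, so these differences and a difference of single lines cannot be told apart.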

How the results depend on the processing

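Of the differences printed for members and list genes, those of Slc2a1 with turned IM2 arrays (-0.25) and of Ckmt1 on Cy3 arrays alone (-0.003), neither of which passed the test, changed sign. Over the members and list genes and all alternatives, 1867 values kept their side of the threshold, whether called or not, 385 lost their call and 47 gained one. Only results called in the main fit could lose a call, so the 385 are not to be read as a share of all these values. The member results counted were mainly those with an unadjusted p under 0.05 (limma). Of the list counts in the transfected mean, 274 stayed within 1.5 times and 50 did not, 20 of these for glycogen metabolism and 10 for skeletal muscle markers (0 to 8, against 7). The counts of member probes called, against 3 in the transfected mean, 1 in D7E, 3 in D7F, 3 in WTA and 0 in WTD (each against IM2), 1 in D7E against WTA, 2 in D7F against WTD, 3 in genotype by level, 1 in WTA against WTD and 0 in D7E against D7F, moved as follows. Without the 14 arrays of lower quality, which leaves fewer cultures, they were 0 in the mean, D7E and D7F against IM2, 1 in WTA, and 0 in D7E against WTA, D7F against WTD, genotype by level and WTA against WTD. With the Cy5 arrays alone they were 0 in the mean and D7E, 1 in WTA and D7F, and 0 in the other 4. With the Cy3 arrays alone they were 0 in D7E, D7E against WTA, D7F against WTD and WTA against WTD, and 1 in genotype by level. With 1 dye orientation enough they were 1 in the mean and genotype by level, and 0 in D7E, D7E against WTA, D7F against WTD and WTA against WTD. With limit values kept they were 0 in D7E, D7E against WTA, D7F against WTD and WTA against WTD, and 1 in genotype by level. Centred arrays gave 0 in D7E. Centred and scaled arrays gave 1 in WTA, 1 in WTD, and 0 in D7E, D7E against WTA and WTA against WTD. With at least 3 cultures in every line, which leaves fewer probes, they were 6 in the mean, 5 in WTA, 2 in D7E, D7E against WTA and WTA against WTD, and 1 in D7E against D7F. With no culture filter they were 0 in D7E, D7E against WTA and WTA against WTD. With the compared lines alone they were 0 in WTA, D7E, D7F, D7E against WTA, D7F against WTD and WTA against WTD. With the culture number as replicate block they were 5 in the mean, and 0 in D7E against WTA and WTA against WTD, and 7 of 15 cultures correlated best with their own number. Where the cause is not named it was not tested. Leaving out 1 culture gave 1 to 6 in the mean, 0 to 2 in D7E, 2 to 4 in D7F, 2 to 6 in WTA, 0 to 1 in WTD, 0 to 2 in D7E against WTA and in D7F against WTD, 1 to 3 in genotype by level, 0 to 1 in WTA against WTD, mutant against wild-type and D7E against D7F, and 0 in high against low. Signal over background could not be given for ratios.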
